A study of Mus musculus with 136 samples.

Results

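The replication-dependent histone genes and the polyadenylated histone variants were compared in the E8.5 mouse conceptus. The members were chosen by gene symbol. The replication-dependent set holds the 65 genes with a symbol beginning Hist1h, Hist2h, Hist3h or Hist4h, and the variant set holds 13 genes, namely H2afb1, H2afb2, H2afb3, H2afj, H2afv, H2afx, H2afy, H2afy2, H2afz, H3f3a, H3f3b, H1f0 and H1fx. Together they are 78 of the 47643 genes in the count table. The sets were proposed after the difference between embryos of diabetic and of normal dams had been seen in these same libraries. Values of the members in that contrast, and in the interaction terms that contain it, are therefore given as a description, and no p-value of a member is printed for them.

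RNA of 66 concepti was sequenced, the embryo and its visceral yolk sac as separate samples. All mice were of the NOD strain, whose females can develop diabetes without any inducing agent. Diabetic dams had blood glucose readings of 423 to 595 mg/dl, with no numeric reading for 1 litter, and normal dams had readings of 105 to 164 mg/dl. All concepti were NOD and were staged by somite pairs, and a yolk sac took the stage of its embryo. Each maternal condition contributed 17 concepti with 5 to 6 somite pairs and 16 with 7 to 9 somite pairs, which gives 8 groups once 4 repeated batch-control libraries are left out. Concepti shared dams: the diabetic embryos came from 9 litters at 5 to 6 and from 6 litters at 7 to 9 somite pairs, and the normal embryos from 10 and 7 litters. Litter D24M15 supplied 7 of the 16 diabetic concepti at 7 to 9 somite pairs and 2 of the 17 at 5 to 6, and tests over concepti do not account for shared dams.

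Histones are the proteins around which DNA is wound: H2A, H2B, H3 and H4 form the core of the nucleosome, and H1 binds the DNA that links nucleosomes. Replication-dependent histone genes lie in clusters, lack introns, and are expressed mainly in S phase, when new chromatin has to be packed. Their mRNAs normally end just past a short stem-loop that is bound by the stem-loop binding protein SLBP and carry no poly(A) tail, whereas the variants are transcribed from single genes throughout the cell cycle and end in a poly(A) tail like other mRNAs. The libraries were primed with oligo(dT), so a count of a replication-dependent gene stands for a molecule that could be primed, through a tail or through a run of A in the transcript, and these sources cannot be told apart in the counts. Each molecule counts once whatever its length, so levels of different genes were compared without division by length.

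The stem-loop was searched for in the annotated transcripts as 6 bases that begin with GG, a loop of 4 bases that begins with TTT, and the reverse complement of the first 6 bases. A perfect copy was found in 42 of the 65 replication-dependent models, 24 to 61 bases after the last coding base with a median of 34.5, against 50 of 58703 protein-coding transcripts of other genes, or 0.0852%. The windows below were taken from GENCODE M21 on GRCm38, the build of the processing notes (mm10). They show the stem-loop in capitals with up to 5 bases on each side, for the most abundant members, for members that the comparisons turn on, and for H2afx, the 1 variant that has it.
Hist1h1c: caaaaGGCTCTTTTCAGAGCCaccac
Hist1h1e: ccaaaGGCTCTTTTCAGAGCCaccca
Hist3h2a: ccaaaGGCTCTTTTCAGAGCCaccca
Hist1h2bj: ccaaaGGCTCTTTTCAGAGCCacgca
Hist1h2bk: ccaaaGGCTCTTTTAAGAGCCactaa
Hist2h2ac: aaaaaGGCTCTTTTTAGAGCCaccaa
Hist1h4d: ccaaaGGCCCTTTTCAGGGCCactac
Hist2h4: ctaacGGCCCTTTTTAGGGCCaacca
H2afx: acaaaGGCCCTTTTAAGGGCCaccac
The stem with GGCTCT and the loop TTTC was shared by 24 members of the H1, H2A, H2B and H3 families, and 6 further members of H1, H2B and H3 had the loop TTTA on the same stem. All 11 H4 genes with a stem-loop had a stem of another kind, GGCCCT in 9 genes and GGTCCT in 2, and Hist2h2ac was the 1 member with GGCTCT and the loop TTTT. These genes lie at chr13:23738808-23740367 (Hist1h1c, plus strand), chr13:23620629-23622558 (Hist1h1e, minus strand), chr11:58954685-58956830 (Hist3h2a, plus strand), chr13:22043214-22043676 (Hist1h2bj, plus strand), chr13:22035870-22036345 (Hist1h2bk, plus strand), chr3:96220361-96220880 (Hist2h2ac, minus strand), chr13:23581598-23582735 (Hist1h4d, plus strand), chr3:96261682-96263311 (Hist2h4, minus strand) and chr9:44334694-44336077 (H2afx, plus strand).

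Annotated 3′ ends differed widely among the replication-dependent members. In 20 genes the model ended within 60 bases past the stem-loop, and 1 of these had AATAAA or ATTAAA in its last 50 bases. In 22 genes the model ran further, and 11 of these had such a poly(A) signal. The remaining 23 models held no stem-loop, 13 of them because the annotation stops within 3 bases of the coding end. The 22 long models took 67.5% of all counts of the set, the 20 short ones 15.99% and the 23 without a stem-loop 16.5%. The last 30 bases are shown for long models and for H3f3a, which has no stem-loop, with the signal in capitals.
Hist1h1c: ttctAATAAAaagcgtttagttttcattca
Hist1h4i: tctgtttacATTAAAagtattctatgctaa
Hist4h4: agaagatgctagaggagatgaAATAAAtac
H3f3a: tgaaaaatAATAAAagtaccaatagaagaa
Hist1h1c runs 840 bases past its stem-loop, Hist1h4i 330 bases and Hist4h4 2445 bases, while Hist1h2bj and Hist1h2bk stop after 23 and 30 bases and have no signal. The variant H2afx carries both ends, a stem-loop and, 822 bases later, the end of a model with a poly(A) signal, and 8 of the 13 variants had a signal in their last 50 bases.

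**Figure D1:**
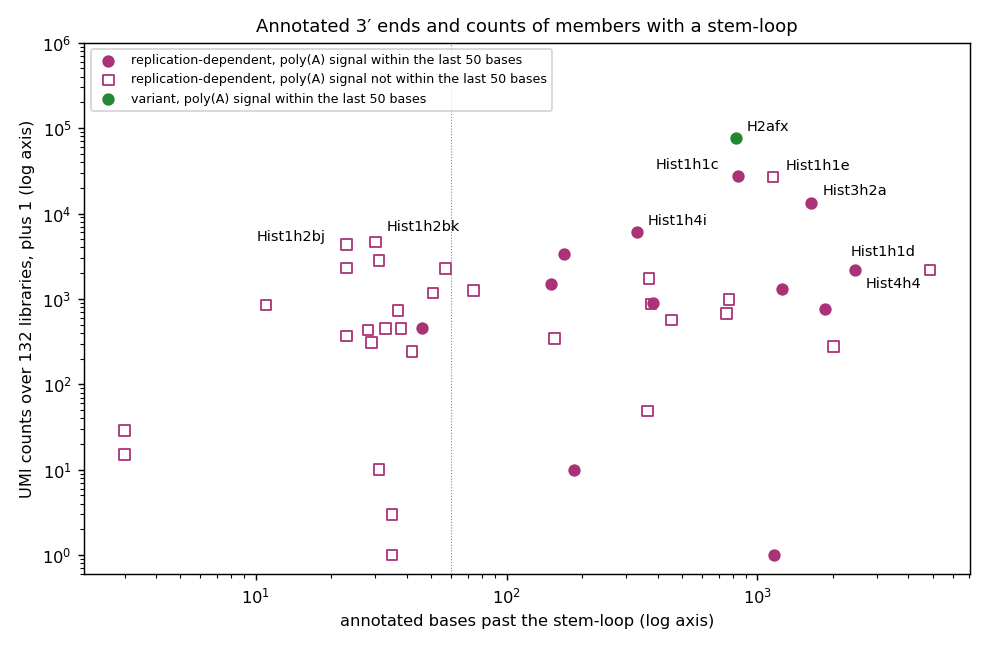
Each point is a member with a stem-loop; the x axis gives annotated bases past the stem-loop and the y axis UMI counts over all libraries plus 1, both on log axes, with filled symbols for models that have a poly(A) signal in the last 50 bases and a dotted line at 60 bases. Hist1h1c (27258 counts), Hist1h1e (26759) and Hist3h2a (13454) lie to the right of the line, and the most abundant members left of it, Hist1h2bk (4627) and Hist1h2bj (4359), have no signal.

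Library totals ran from 1017901 to 5658850 UMI counts, and each library held 274 to 3062 counts of replication-dependent genes. The whole set summed to 136790 counts over all libraries and the variants to 713519. Of the 65 replication-dependent genes, 4 had no count in any library, 12, these included, had on average less than 1 count per library, and 9 were counted in every library. Of the variants, 10 were counted in every library, and H2afb1, H2afb2 and H2afb3 had no count. Shared sequence and overlaps limit the values of single genes. At least 90% of the 50-base stretches of 9 replication-dependent models also stand in transcripts of other genes, members or not. In the same sense 12 models share their last 50 bases, Hist1h1e and Hist1h3e among them, and 21 overlap a gene on the other strand, Hist3h2a and Hist2h2ac among them. The strand setting of the counting is not given in the sources used here.

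Linker histone genes led the replication-dependent set. The H1 family took 47.0% of its counts, H2A 18.2%, H2B 16.2%, H4 12.3% and H3 6.34%, and 3 genes (Hist1h1c, Hist1h1e and Hist3h2a) together took 49.3%. By mean level over all embryo libraries, in counts normalized by DESeq2 size factors (used for every level below), Hist1h1e came first at 234.0, followed by Hist1h1c at 150.5, Hist3h2a at 112.3, Hist1h2bk at 56.4 and Hist1h2bj at 56.1. The yolk sac order began with Hist1h1c at 253.9 and Hist1h1e at 165.6, and Hist1h2bc, an H2B gene, stood at 47.6. Neighbors in these orders overlapped in range, as Hist1h1e and Hist1h1c did in each embryo group. Among the variants H3f3b, 1 of the pair of genes for H3.3, was first in embryos at 2059 and in yolk sacs at 1475, and H2afj was last of the detected genes in embryos at 69.8.

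Marker genes followed the tissue labels. In the yolk sac against the embryo at 7 to 9 somite pairs, 10 of 10 visceral endoderm genes and 5 of 5 primitive erythroid genes were higher, and 5 of the 5 tested neural and somite genes were lower (edgeR quasi-likelihood test, adjusted p under 0.05). The summed share of the visceral endoderm list in embryo libraries was 0.0272% ± 0.0188 (SD, n = 16) in the normal and 0.0411% ± 0.0436 (SD, n = 16) in the diabetic group at 7 to 9 somite pairs, with overlapping ranges of 0.0045% to 0.0665% and 0.00675% to 0.157%. None of its 8 tested genes was called between these groups by edgeR, and their median log2 fold change was 0.52. The median was 1.23 for 3 tested primitive erythroid genes and -0.15 for 5 tested neural and somite genes, again without a call. The part of these cell types in the members' values was not tested. The whole conceptus tissues were sequenced in bulk, so fewer cells in S phase and less histone RNA per cell cannot be told apart.

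At 7 to 9 somite pairs, embryos of diabetic dams held more replication-dependent histone counts than embryos of normal dams. The set took 0.0776% ± 0.0219 (SD, n = 16) of the library in diabetic and 0.0438% ± 0.0127 (SD, n = 16) in normal embryos, a ratio of 1.77. Diabetic libraries ran from 0.0461% to 0.131% with a median of 0.0757%, and normal libraries from 0.031% to 0.0867% with a median of 0.0416%. The groups overlapped, but 1 normal library lay above the diabetic median. At 5 to 6 somite pairs the shares were 0.0578% ± 0.018 (SD, n = 17) and 0.0404% ± 0.0102 (SD, n = 17), a ratio of 1.43, and 7 of the 17 diabetic libraries lay above the highest normal library. The summed share of the variants went the other way, from 0.314% ± 0.0247 in normal to 0.282% ± 0.0364 in diabetic embryos at 7 to 9 somite pairs (SD, n = 16 each) and from 0.318% ± 0.0321 to 0.284% ± 0.0487 at 5 to 6 (SD, n = 17 each), again with overlapping ranges. Single variants did not share this direction: 4 of 10 tested had a fold change above 0 at 7 to 9 and 5 of 10 at 5 to 6 somite pairs.

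**Figure D2:**
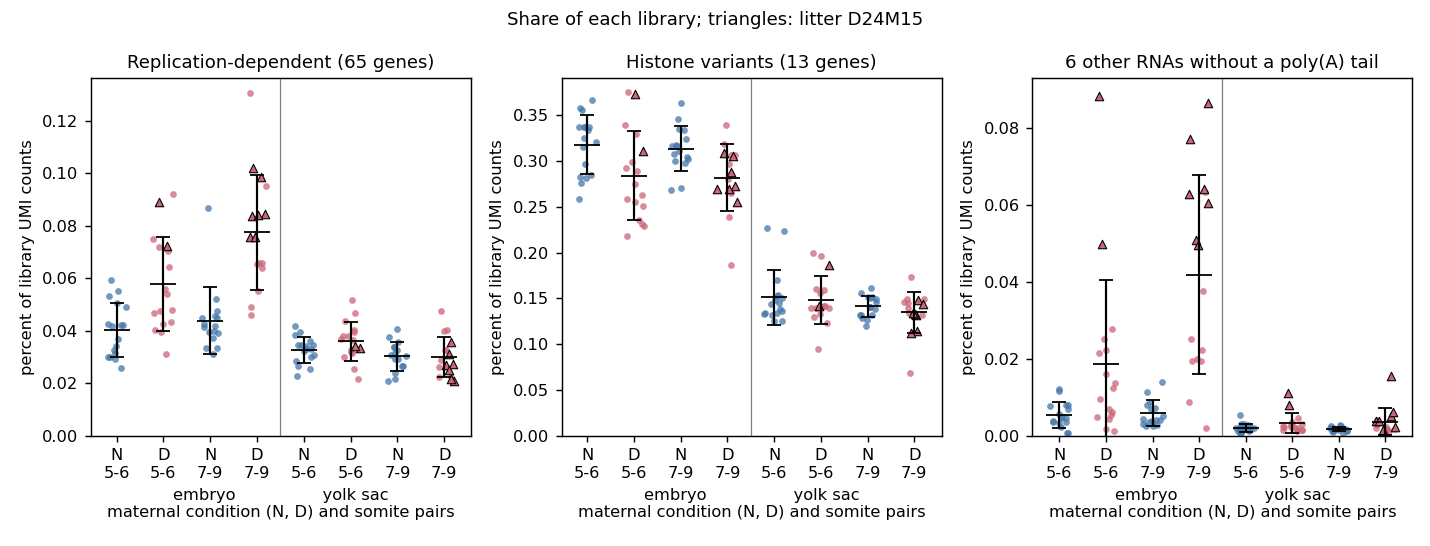
Share of library UMI counts (percent) in each library for the replication-dependent set, the variants and 6 other RNAs that carry no poly(A) tail, by tissue, maternal condition (N normal, D diabetic) and somite stage, with black marks for mean and SD and triangles for litter D24M15. In embryos at 7 to 9 somite pairs the first panel shows means of 0.0438% (N) and 0.0776% (D) and the third panel 0.00582% (N) and 0.0418% (D), while the yolk sac groups of the first panel lie between means of 0.0301% and 0.036%.

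The families differed in how far they moved in embryos at 7 to 9 somite pairs. The H4 share was 0.0136% ± 0.00567 in diabetic and 0.00513% ± 0.00164 in normal embryos (SD, n = 16 each), a ratio of 2.64, and 12 of 16 diabetic libraries exceeded every normal one. The ratio was 2.50 for H3, 2.42 for H2B, 1.39 for H1 and 1.27 for H2A. For H2B, 14 of 16 diabetic libraries lay above the highest normal library, whereas for H1 none did. Without the 3 most abundant genes the set's ratio was 2.28.

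Single genes followed the same direction. In the fit over all genes, 26 replication-dependent members passed the filter on low counts, and 19 of them were raised and none lowered at an adjusted p of 0.05, where 5.2% of all genes were raised and 3.89% lowered. The tested members had a median log2 fold change of 1.09, against -0.01 for all genes. A fit without the filter held 61 members with a count, of which 60 had a fold change above 0, where 51.8% of all genes did. The exception was Hist1h2aa. Since the sets were proposed from this contrast, these counts are descriptive.

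The H4 genes Hist2h4 and Hist1h4d had the largest fold changes. Hist2h4 ran from 2.16 to 22.5 with a median of 8.24 in normal embryos and from 8.04 to 97.5 with a median of 40.8 in diabetic embryos at 7 to 9 somite pairs, a log2 fold change of 2.21 ± 0.29 (SE, n = 16 per group). The middle of the diabetic group lay above all normal libraries, although the ranges met. Hist1h4d had a median of 5.05 (0 to 22.5) in normal and 25.3 (3.35 to 54.7) in diabetic embryos, and a log2 fold change of 2.02 ± 0.30 (SE). For Hist4h4, the 1 replication-dependent member on chromosome 6, the medians were 14.8 and 47.5 and the log2 fold change 1.79 ± 0.29 (SE). Hist4h4 lies at chr6:136801553-136804415, near the variant H2afj at chr6:136808244-136810074. The more abundant Hist1h4i differed less, with medians of 34.04 (20.5 to 45.99) and 58.1 (32.3 to 84.0) and a log2 fold change of 0.74 ± 0.13 (SE).

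Among H2B genes, Hist1h2bj rose from a median of 27.97 (6.27 to 64.4) in normal to 89.8 (11.4 to 296) in diabetic embryos, with a log2 fold change of 1.78 ± 0.31 (SE). Its neighbor Hist1h2bk had medians of 37.4 (11.9 to 57.0) and 95.6 (24.8 to 232) and a log2 fold change of 1.41 ± 0.20 (SE). Hist1h2bc had medians of 11.5 (5.56 to 23.9) and 31.7 (14.3 to 94.4) and a log2 fold change of 1.45 ± 0.22 (SE). In each of these genes the ranges of the groups overlapped. Hist3h2ba, in the small cluster on chromosome 11, had medians of 32.9 and 42.7 and was not called, with a log2 fold change of 0.27 ± 0.18 (SE).

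The linker genes differed among themselves. Hist1h1d, which codes for H1.3, had a median of 14.3 (6.27 to 49.0) in normal and 57.2 (8.71 to 98.5) in diabetic embryos and a log2 fold change of 1.74 ± 0.27 (SE). Hist1h1b had a log2 fold change of 0.76 ± 0.20 (SE) and Hist1h1c of 0.54 ± 0.16 (SE). Hist1h1e, the most abundant member, had medians of 190 (113 to 614) and 221 (158 to 382) and was not called, with a log2 fold change of 0.17 ± 0.16 (SE). The H3 genes Hist1h3e, Hist1h3b and Hist2h3c2 were called, with log2 fold changes of 1.71 ± 0.28, 1.53 ± 0.33 and 1.23 ± 0.37 (SE). The H2A genes held the smallest differences: Hist1h2an had a log2 fold change of 1.07 ± 0.26 (SE), while Hist2h2ac at 0.54 ± 0.23 (SE) and Hist3h2a at 0.05 ± 0.10 (SE) were not called.

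Of the 10 variants tested in the same fit, 1 was raised and none lowered. This was H2afj, an H2A gene with a polyadenylated mRNA, with medians of 64.5 (45.2 to 96.7) and 78.5 (52.3 to 157) and a log2 fold change of 0.44 ± 0.12 (SE). H2afz, the H2A.Z gene, had a log2 fold change of 0.33 ± 0.12 (SE) and H2afx, whose phosphorylated protein marks DNA breaks, of -0.14 ± 0.10 (SE). The abundant H2afv had medians of 2143 in normal and 1797 in diabetic embryos (log2 fold change -0.23 ± 0.10, SE) and H3f3b of 1776 and 1746 (-0.20 ± 0.11, SE). The median of the variants was -0.09.

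**Figure D3:**
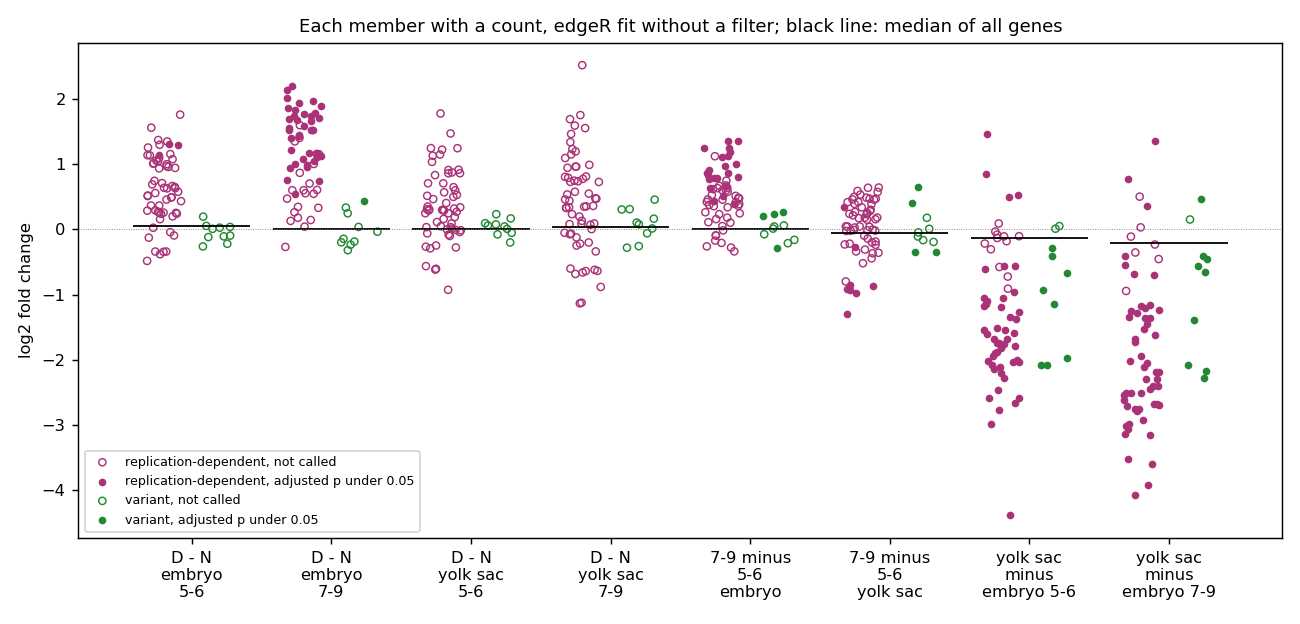
Log2 fold change of every member with a count, from the edgeR fit without a filter, in 8 comparisons (replication-dependent genes in purple, variants in green, filled where the adjusted p was under 0.05, black lines for the median of all genes). In diabetic minus normal embryos at 7 to 9 somite pairs 60 of 61 purple points lie above 0, and in yolk sac minus embryo at the same stage 5 of 61 do.

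At 5 to 6 somite pairs, 3 of 22 tested replication-dependent genes were raised in diabetic embryos and none lowered, where 0.591% of all genes were raised and 0.872% lowered. Hist1h4n had a median of 10.7 (2.31 to 33.4) in normal and 27.8 (13.5 to 72.9) in diabetic embryos, with a log2 fold change of 1.32 ± 0.28 (SE, n = 17 per group). Hist1h2bj had medians of 21.9 and 37.7 and Hist2h2bb of 3.95 and 11.6, with log2 fold changes of 1.32 ± 0.34 and 1.16 ± 0.29 (SE). The groups overlapped for each gene. Hist1h1e had medians of 102 (29.1 to 400) and 329 (77.9 to 512) and was not called, with a log2 fold change of 0.95 ± 0.31 (SE). None of the 10 variants was called by edgeR or by DESeq2 at this stage, and 1 had an unadjusted p under 0.05 in edgeR.

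The share varied between litters. Over litter means at 7 to 9 somite pairs, the replication-dependent share ran from 0.0559% to 0.131% in 6 diabetic litters and from 0.0334% to 0.0867% in 7 normal litters, with the highest diabetic and the highest normal value each from a single conceptus. For the earlier stage it ran from 0.0311% to 0.082% in 9 diabetic and from 0.0257% to 0.0508% in 10 normal litters. With counts summed per litter no member was called at either stage, although all 19 genes called over concepti at 7 to 9 somite pairs kept a fold change above 0. Before adjustment, 28 of 39 tested members were under 0.05 in edgeR. In that fit only 8 genes of the whole table were called. Without litter D24M15 the share of diabetic embryos at 7 to 9 somite pairs was 0.0708% ± 0.0265 (SD, n = 9), and 11 members were called. The share of all genes under 0.05 with litter sums, or called without litter D24M15, is not given here, so nothing is read from these counts. Within title number 28, the only number of the sample titles with several litters of both conditions at this stage, the mean share was 0.0714% ± 0.0283 in 8 diabetic and 0.0458% ± 0.0132 in 13 normal embryos (SD).

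A group of 6 unrelated RNAs that also carry no poly(A) tail moved with the maternal condition in the same libraries. These were the Y RNAs Rny1 and Rny3, Rn7sk, Rpph1, Rmrp and Terc, all short structural RNAs. Their summed share was 0.0418% ± 0.0258 in diabetic and 0.00582% ± 0.00337 in normal embryos at 7 to 9 somite pairs (SD, n = 16 each), a ratio of 7.19, and 14 of 16 diabetic libraries lay above every normal one. Without litter D24M15 the diabetic share was 0.0242% ± 0.0177 (SD, n = 9), a ratio of 4.16, with 7 of 9 libraries above every normal one. The ratio was 3.42 at 5 to 6 somite pairs, and 2.19 without that litter. In yolk sacs at 7 to 9 somite pairs it was 2.12, with a share of 0.00364% ± 0.00352 in diabetic libraries (SD, n = 16), and 1.27 without that litter. All 4 of these RNAs that could be tested in embryos at 7 to 9 somite pairs were raised (edgeR), where 5.2% of all genes were. Rny3 had a log2 fold change of 3.16 ± 0.38 (SE). The list was chosen with earlier results of these data known, so these calls are descriptive. With their summed level as a covariate, chosen after seeing the data, none of 47 tested replication-dependent members was called at 7 to 9 somite pairs by edgeR, 4 had an unadjusted p under 0.05, and 13 of the 19 genes kept a fold change above 0. The share of all genes called fell from 9.09% to 0.419% in that fit, and this level and the maternal condition separate nearly the same libraries, so their parts in the result cannot be told apart.

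Mitochondrial rRNA, which the oligo(dT) primed as well, took 1.37% of the library in both conditions at 7 to 9 somite pairs. With its level as a covariate, also chosen after seeing the data, 42 of 49 tested members were raised at that stage. At 5 to 6 somite pairs its share was 2.49% ± 0.90 in diabetic and 1.71% ± 1.04 in normal embryos (SD, n = 17 each), and with it as a covariate no member was called by edgeR, with 21 of 34 tested members under 0.05 before adjustment. The shares of all genes in these covariate fits are not given here, so nothing is read from the counts of members.

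In embryos, stage was compared with maternal condition in the model. Over concepti, 14 of 29 tested members were higher at 7 to 9 than at 5 to 6 somite pairs and none lower, where 14.3% of all genes were higher and 15.8% lower (edgeR, adjusted p under 0.05). The fit holds the diabetic embryos from whose difference the sets were proposed. Its calls and p-values are therefore descriptive for both sets. Hist2h4 rose by a log2 fold change of 1.26 ± 0.27 (SE, adjusted p = 0.00028), from medians of 5.84 to 8.24 in normal and of 7.67 to 40.8 in diabetic embryos. Hist1h3e rose by 1.13 ± 0.24 (SE, adjusted p = 0.00019) on the log2 scale and Hist1h1d by 0.87 ± 0.22 (SE, adjusted p = 0.002). With counts summed per litter 3 members were called, Hist2h4 and Hist1h3e among them but not Hist1h1d (adjusted p = 0.0644), and with litter as a random block 12 were higher and 1, Hist3h2ba, was lower. Of the RNAs without a tail, 2 of 4 tested were also higher at the later stage (median log2 fold change 0.74), as were 3 of 3 tested primitive erythroid markers (median 4.25). With the level of the RNAs without a tail as covariate 9 members were called, and the part of the erythroid markers was not tested. The shares of all genes called in the fits by litter and with this covariate are not given here, so nothing is read from their counts. For Hist2h4 and Hist1h1d the ranges of the stages overlapped within each condition. The abundant Hist1h1e (0.05 ± 0.19, SE), Hist1h1c (-0.17 ± 0.11, SE) and Hist3h2a (-0.09 ± 0.08, SE) did not pass the test.

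The summed share of the set in normal embryos was 0.0404% at 5 to 6 and 0.0438% at 7 to 9 somite pairs, and in diabetic embryos 0.0578% and 0.0776%. By single somite numbers, the diabetic means were 0.0547% ± 0.0147 at 5 pairs (SD, n = 13), 0.0841% ± 0.0218 at 8 pairs (SD, n = 9) and 0.0705% ± 0.0255 at 9 pairs (SD, n = 3), and the normal means 0.0427% ± 0.0118 at 5 pairs (SD, n = 11) and 0.0493% ± 0.0213 at 9 pairs (SD, n = 5). Without litter D24M15, 10 of 27 tested members were called, all higher at the later stage, and the share of all genes in that fit is not given here. Of the variants, H2afj (0.27 ± 0.09, SE, adjusted p = 0.014), H2afv (0.23 ± 0.07, SE, adjusted p = 0.0062) and H2afy, the macroH2A1 gene (0.21 ± 0.05, SE, adjusted p = 0.00097), rose on the log2 scale, while H3f3b fell by 0.29 ± 0.07 (SE, adjusted p = 0.002).

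An interaction term gave the change of the maternal difference with stage. In embryos, 2 of 34 tested replication-dependent members passed, a smaller share than the 8.7% of all genes that did, in either direction, and none passed without the filter. The interaction was 1.53 ± 0.47 (SE) for Hist1h4d and 1.08 ± 0.36 (SE) for Hist1h3a, both larger at 7 to 9 somite pairs. Hist1h3a had medians of 6.92 in normal and 4.91 in diabetic embryos at 5 to 6 and of 6.34 and 13.4 at 7 to 9 somite pairs. These 2 calls rest on the same libraries from which the sets were proposed. None of the 10 variants passed, 1 with an unadjusted p under 0.05 and none in DESeq2. In yolk sacs, none of 11 replication-dependent members and none of 10 variants passed by edgeR, where 0% of all genes did, and before adjustment 4 and 0 members were under 0.05, while DESeq2 gave no call.

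In yolk sacs, the maternal condition left the replication-dependent set without a call. The shares at 7 to 9 somite pairs were 0.0301% ± 0.00767 in diabetic and 0.0303% ± 0.00555 in normal yolk sacs (SD, n = 16 each), and at 5 to 6 they were 0.036% ± 0.00741 and 0.0328% ± 0.00498 (SD, n = 17 each), with overlapping ranges. None of 9 tested members was called at 5 to 6 somite pairs, where 0% of all genes were raised and 0% lowered, and none of 8 at 7 to 9, where 0.0194% were raised and 0% lowered. Unadjusted p-values under 0.05 were reached by 2 and 3 of these members in edgeR, and DESeq2 called none. In the fit without a filter, 44 of 59 members were above 0 at 5 to 6 somite pairs, where 51.0% of all genes were. Their median log2 fold change was 0.30, against 0.01 for all genes. At 7 to 9 somite pairs 44 of 61 were above 0, where 54.8% of all genes were, with medians of 0.36 and 0.04. None was called in these fits. Among the 8 members that passed the filter at the later stage, the largest difference was that of Hist2h2ac, an H2A gene, with medians of 13.9 (6.07 to 29.1) in normal and 6.19 (3.93 to 23.2) in diabetic yolk sacs and a log2 fold change of -0.89 ± 0.23 (SE, adjusted p = 0.17). None of the 10 variants was called at either stage by edgeR or DESeq2, with 0 and 4 at an unadjusted p under 0.05 in edgeR.

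By stage in the yolk sac, called members went in both directions. Of 9 tested members, Hist1h2bc was higher at 7 to 9 somite pairs and Hist1h1b, Hist1h1c, Hist1h2an, Hist1h4n and Hist2h2ac were lower, where 20.7% of all genes were higher and 19.7% lower. Hist1h2bc had medians of 45.5 and 52.2 in normal and of 36.1 and 50.7 in diabetic yolk sacs, and a log2 fold change of 0.35 ± 0.11 (SE, adjusted p = 0.0064). Hist1h2an fell by 1.29 ± 0.28 (SE, adjusted p = 0.00013), Hist2h2ac by 0.92 ± 0.21 (SE, adjusted p = 0.00037) and Hist1h1b by 0.91 ± 0.23 (SE, adjusted p = 0.0011) on the log2 scale. The share of mitochondrial rRNA moved with the stage too, from 4.04% to 2.56% in normal and from 3.73% to 2.42% in diabetic yolk sacs. With its level as a covariate, chosen after seeing the data, 3 members were called, all higher at the later stage. The share of all genes called in that fit is not given here, so nothing is read from this count or its direction. Cell type markers moved with this stage as well: 8 of 10 visceral endoderm genes (median log2 fold change 0.58) and 4 of 5 primitive erythroid genes (median 0.79) were higher at 7 to 9 somite pairs, and their part in the members' values was not tested.

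Of the 10 variants, 3 were higher and 2 lower at the later stage in yolk sacs, beside the 20.7% and 19.7% of all genes, and 5 did not pass. H2afj rose by a log2 fold change of 0.67 ± 0.09 (SE, adjusted p = 2.5e-08), from a median of 59.98 to 94.8 in normal and of 65.03 to 92.8 in diabetic yolk sacs. H3f3a, the other H3.3 gene, rose by 0.40 ± 0.11 (SE, adjusted p = 0.0033) and H1f0, the linker histone of resting and differentiated cells, by 0.18 ± 0.08 (SE, adjusted p = 0.044). H3f3b and H2afz each fell by 0.35, with SE of 0.09 and 0.10 and adjusted p of 0.0021 and 0.0025.

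Most replication-dependent genes were lower in the yolk sac than in the embryo. At 7 to 9 somite pairs all 26 tested replication-dependent members were called, 23 lower and 3 higher in the yolk sac, where 42% of all genes were lower and 39.1% higher (edgeR, adjusted p under 0.05). At 5 to 6 somite pairs 12 of 20 were lower and 4 higher, where 40.7% of all genes were lower and 38.5% higher. Only 8 members passed the filter within yolk sacs at 7 to 9 somite pairs, so most of the 26 entered through the embryo groups in which they are high, and the count of lower members supports nothing by itself. Over all members with a count, in the fit without a filter, the median log2 fold change was -2.05 at 7 to 9 and -1.53 at 5 to 6 somite pairs, against -0.22 and -0.13 for all genes. With the embryo and yolk sac of each conceptus paired as a block, 46 of 50 tested members were lower and 3 higher at 7 to 9 somite pairs, and 34 of 43 lower and 4 higher at 5 to 6. The shares of all genes called in the paired fits are not given here.

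Hist3h2ba, an H2B gene, showed the largest difference. It ran from 18.5 to 56.2 with a median of 32.9 in normal embryos and from 0 to 5.41 with a median of 1.82 in normal yolk sacs at 7 to 9 somite pairs, so that these groups did not overlap. Its log2 fold change was -4.11 ± 0.20 (SE, adjusted p = 1.3e-30), and at 5 to 6 somite pairs -4.39 ± 0.17 (SE, adjusted p = 2e-37). Hist3h2a, next to it on chromosome 11, differed by -0.45 ± 0.11 (SE, adjusted p = 0.0001) at 7 to 9 somite pairs. Hist2h4 (-3.96 ± 0.27, SE, adjusted p = 2.7e-22), Hist1h2bj (-3.64 ± 0.27, SE, adjusted p = 7.1e-21) and Hist2h3c2 (-3.56 ± 0.34, SE, adjusted p = 1.4e-15) followed. Mean levels over all yolk sac libraries were low, at 1.499 for Hist2h4, 5.96 for Hist1h2bj, 0.932 for Hist2h3c2 and 2.06 for Hist3h2ba. Few yolk sac counts thus stand behind these fold changes. Hist2h4, Hist1h2bj and Hist2h3c2 were also raised in embryos of diabetic dams, which are part of this fit. Their sizes and p-values are therefore descriptive.

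Against this direction, 3 genes were higher in the yolk sac at both stages. Hist1h2bc ran from 5.56 to 23.9 with a median of 11.5 in normal embryos and from 33.0 to 75.6 with a median of 52.2 in normal yolk sacs at 7 to 9 somite pairs, again without overlap, and its log2 fold change was 1.31 ± 0.15 (SE, adjusted p = 3.8e-12). Hist1h1c, which codes for H1.2, had medians of 110 and 217 in the same groups and differed by 0.74 ± 0.12 (SE, adjusted p = 9.2e-08). Hist1h4i had medians of 34.04 and 53.4 and differed by 0.31 ± 0.12 (SE, adjusted p = 0.017), a call lost with litter as a random block (adjusted p = 0.0793) and with library totals (adjusted p = 0.153). Hist2h2ac was also higher at 5 to 6 somite pairs, with 0.52 ± 0.24 (SE, adjusted p = 0.039), a call lost with litter sums, RLE scaling, library totals and DESeq2 (adjusted p of 0.0539 to 0.153), but at 7 to 9 it was lower in the yolk sac by -0.58 ± 0.18 (SE, adjusted p = 0.003).

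**Figure D4:**
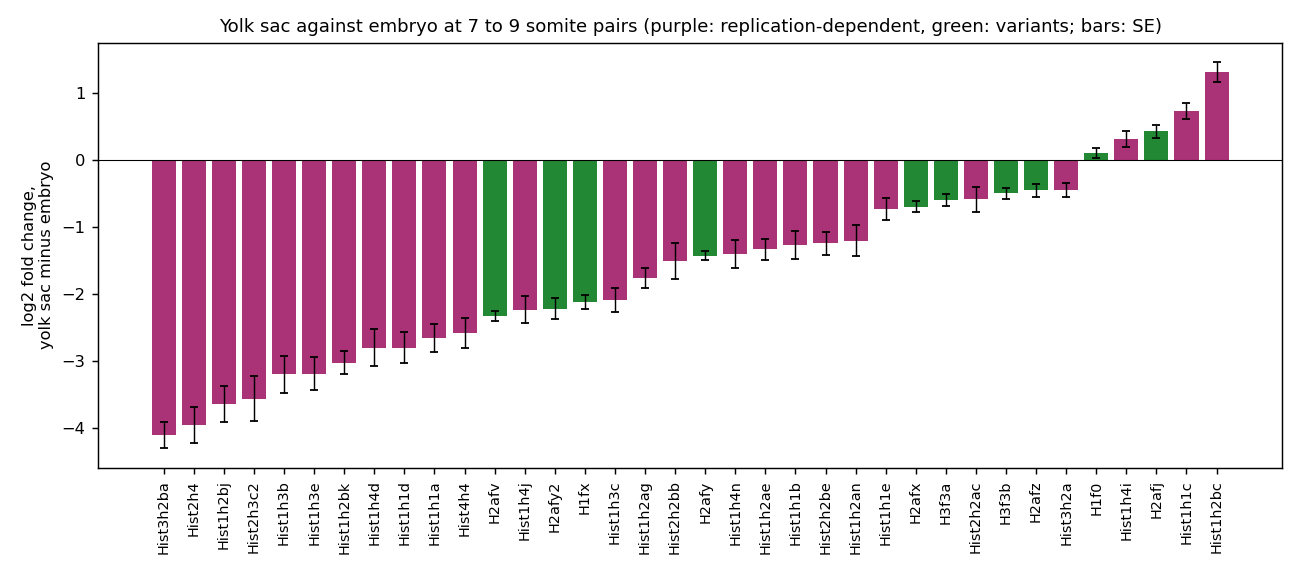
Log2 fold change of yolk sac minus embryo at 7 to 9 somite pairs for the 26 replication-dependent genes (purple) and 10 variants (green) that passed the filter on low counts, with SE bars, ordered by size. Hist3h2ba stands at -4.11 and Hist1h2bc at 1.31 at the ends of the order.

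Most variants were lower in the yolk sac as well. At each stage 8 of 10 were lower, with a median log2 fold change of -0.65 at 7 to 9 somite pairs. H2afv (-2.33 ± 0.07, SE, adjusted p = 6e-41), H2afy2 (-2.22 ± 0.15, SE, adjusted p = 5.4e-22) and H1fx, a linker histone (-2.12 ± 0.10, SE, adjusted p = 1.1e-30), led at 7 to 9 somite pairs. H2afv had medians of 2143 (1251 to 2593) in normal embryos and 365 (286 to 439) in normal yolk sacs, with no overlap. H2afj was higher in the yolk sac at 7 to 9 somite pairs (0.43 ± 0.10, SE, adjusted p = 9.9e-05), and H1f0 did not pass the test at either stage. The summed variant share was 0.314% ± 0.0247 in normal embryos and 0.141% ± 0.0119 in normal yolk sacs at 7 to 9 somite pairs (SD, n = 16 each), and the replication-dependent share 0.0438% and 0.0303%.

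In the interaction of tissue and maternal condition at 7 to 9 somite pairs, 4 of 26 tested replication-dependent members passed, where 0.389% of all genes did in either direction. This term holds the embryo contrast from which the sets were proposed, so nothing is read from the count. The term, yolk sac minus embryo, was -1.78 ± 0.43 for Hist1h2an, -1.73 ± 0.36 for Hist1h4n, -1.44 ± 0.33 for Hist2h2ac and -1.38 ± 0.26 for Hist1h2bc (SE), each on the log2 scale. Hist1h4n, for example, had medians of 17.9 and 42.5 in normal and diabetic embryos and of 14.6 and 7.83 in normal and diabetic yolk sacs. None of the 10 variants passed by edgeR, although 3 were under 0.05 before adjustment and 1 was called with DESeq2. At 5 to 6 somite pairs none of 21 members and none of 10 variants passed in edgeR, where 0% of all genes did, and 2 and 1 were under 0.05 before adjustment, with no variant called in DESeq2.

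Of 66 genes that serve histone supply and DNA replication, 4 were called between embryos of diabetic and normal dams at 7 to 9 somite pairs, where 9.09% of all genes were. Of 16 tested genes for histone mRNA 3′ ends and their S-phase expression, Lsm10, a protein of the U7 particle that cuts histone mRNAs, was raised in diabetic embryos at 7 to 9 somite pairs (log2 fold change 0.49 ± 0.10, SE, adjusted p = 0.0025) and Cpsf2, of the cleavage complex, was lowered (-0.27 ± 0.07, SE, adjusted p = 0.012). Slbp, which binds the stem-loop, stood at 57.0 ± 21.2 in normal and 60.3 ± 14.7 in diabetic embryos (SD, n = 16 each). None of 22 histone chaperones was called there by edgeR. Of 28 DNA replication genes, Tk1 (0.38 ± 0.10, SE, adjusted p = 0.012) and Mcm7 (0.24 ± 0.08, SE, adjusted p = 0.045) were raised, and the list's median was -0.02. At the earlier stage 2 of the 66 were called, both lowered, where 0.872% of all genes were lowered and 0.591% raised. These were Zfp473, of the histone 3′ end list (-0.53 ± 0.13, SE, adjusted p = 0.036), and Cdt1, a replication licensing factor (-0.31 ± 0.08, SE, adjusted p = 0.048). The summed share of the DNA replication list at 7 to 9 somite pairs was 0.550% ± 0.0236 in diabetic and 0.552% ± 0.0212 in normal embryos (SD, n = 16 each).

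The same lists were compared between tissues. At 7 to 9 somite pairs 16 of 28 DNA replication genes were lower and 3 higher, with a median of -0.32, and 18 of 22 chaperones were lower and 2 higher, with a median of -0.55, against -0.03 for all genes, of which 42% were lower and 39.1% higher. Nasp, the chaperone that holds H3 and H4 before deposition, differed by -0.998 ± 0.0602 (SE, adjusted p = 3.8e-25). Of the 16 genes for 3′ ends 11 were lower and 2 higher, and Slbp differed by -0.25 ± 0.10 (SE, adjusted p = 0.019). The 6 RNAs without a tail had 4 tested genes, all lower in the yolk sac, with a median of -2.24.

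Covariation within the groups was examined last. The 13 members that rank in the first 10 of either tissue were compared over 22 litters, as mean log2 deviations from the group mean, with the 6 RNAs without a tail and with mitochondrial rRNA, a measure chosen after its values had been seen. This made 52 relations in the 2 tissues, with permutation p-values (100000 resamples) adjusted over all of them. Hist1h1e followed mitochondrial rRNA, with r = 0.95 and rho = 0.91 in embryos (permutation p = 1e-05, the smallest these resamples can give, adjusted p = 6.5e-05 for r) and r = 0.87 and rho = 0.87 in yolk sacs (adjusted p = 6.5e-05). Without the 2 litters farthest from the median r was 0.90 and 0.86, and over the 15 litters of title number 28 it was 0.93 and 0.87. Hist1h1b (r = 0.88), Hist1h2an (r = 0.90) and Hist2h2ac (r = 0.87) did the same in embryos, each with an adjusted p of 6.5e-05.

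Other members followed the RNAs without a tail. Hist1h2bj gave r = 0.82 and rho = 0.78 in embryos (permutation p = 1e-05, adjusted p = 6.5e-05 for r and 0.000455 for rho) and r = 0.67 and rho = 0.68 in yolk sacs (adjusted p = 0.0027). Without the 2 farthest litters r was 0.83 and 0.58, and over title number 28 it was 0.79 and 0.55. Hist1h1d gave r = 0.74 in embryos (adjusted p = 0.000312) and r = 0.88 in yolk sacs (adjusted p = 6.5e-05). Hist1h2bj did not follow mitochondrial rRNA at the threshold in embryos (r = 0.23, adjusted p = 0.408), nor Hist1h1e the RNAs without a tail (r = 0.33, adjusted p = 0.207). The measures were not separate in either tissue. In embryos Hist1h1d also passed for r against mitochondrial rRNA (r = 0.54, adjusted p = 0.0342) but not for rho (rho = 0.32, adjusted p = 0.244). Its r was 0.12 without the 2 farthest litters. Hist1h4n passed for r against both, with r = 0.54 for the RNAs without a tail (adjusted p = 0.0233) and r = 0.72 for mitochondrial rRNA (adjusted p = 0.000966). In yolk sacs Hist1h1e also followed the RNAs without a tail (r = 0.52, rho = 0.51, adjusted p = 0.0327 for r, r = 0.26 without the 2 farthest litters) and Hist1h1d also followed mitochondrial rRNA (r = 0.75, rho = 0.61, adjusted p = 0.000678 for r). Hist3h2a ran opposite to mitochondrial rRNA in embryos, with r = -0.58 (adjusted p = 0.0107), rho = -0.49 and r = -0.50 without the 2 farthest litters, and rho missed the threshold (adjusted p = 0.0524). In all, 5 and 8 of 13 members passed for r in embryos against the 2 measures, and 6 and 6 in yolk sacs.

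**Figure D5:**
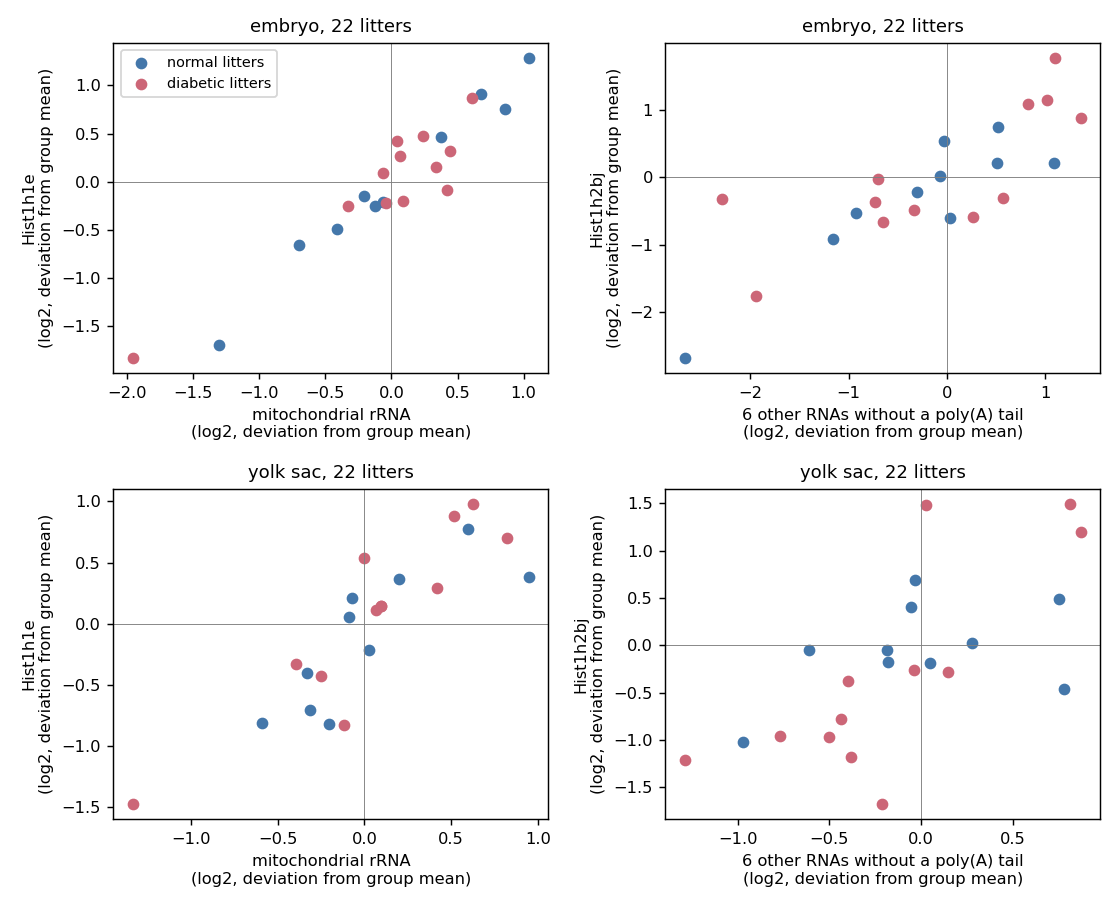
Deviations from the group mean (log2) over 22 litters, Hist1h1e against mitochondrial rRNA at left and Hist1h2bj against the 6 RNAs without a poly(A) tail at right, in embryos above and yolk sacs below, with normal litters in blue and diabetic litters in red. The points rise together in each panel, with r = 0.95 and 0.82 in embryos and r = 0.87 and 0.67 in yolk sacs.

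The maternal comparison was also read by the kind of annotated 3′ end. In embryos at 7 to 9 somite pairs the median log2 fold change in the fit without a filter was 1.40 for 19 genes whose model ends within 60 bases past the stem-loop (19 above 0), 1.15 for 21 genes with longer models (21 above 0) and 1.15 for 21 genes without a stem-loop in the model (20 above 0), against -0.09 for the 10 variants. By cluster, the 50 Hist1 genes on chromosome 13 had a median of 1.26, the 8 Hist2 genes on chromosome 3 of 0.89, and the 2 Hist3 genes on chromosome 11 of 0.15. These differences between classes were not tested.

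Promoters of 59 replication-dependent genes and 11 variants were matched to RefSeq (GRCm38.p6, 250 bases before to 50 after the start), and known histone promoter motifs were searched for on both strands. The octamer ATTTGCAT was found in 7 of 17 H2A and 5 of 14 H2B promoters, in none of the 28 of H1, H3 and H4, and in 1.74% of all 32851 promoters. CCAAT was found in 50 of 59 replication-dependent promoters, but in 3 of 12 for H4, and in 37.4% of all. TATAAA was found in 35 of 59, in 1 of 11 variant promoters and in 13.6% of all, and AAACACA in 5 of 6 H1 promoters and 7.18% of all. These matches are descriptions of the sequence and not binding sites. The promoters of Hist1h1d (chr13:23554782-23555081, plus strand) and Hist1h2bk (chr13:22035571-22035870, plus strand) are shown as an H1 and an H2B gene that differed between embryos of diabetic and normal dams, with motif matches in capitals.
Hist1h1d: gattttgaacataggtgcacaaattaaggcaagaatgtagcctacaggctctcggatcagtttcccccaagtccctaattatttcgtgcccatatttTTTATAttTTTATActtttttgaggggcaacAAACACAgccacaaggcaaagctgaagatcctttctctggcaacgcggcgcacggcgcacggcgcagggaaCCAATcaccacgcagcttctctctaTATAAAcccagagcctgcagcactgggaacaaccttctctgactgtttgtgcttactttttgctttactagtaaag
Hist1h2bk: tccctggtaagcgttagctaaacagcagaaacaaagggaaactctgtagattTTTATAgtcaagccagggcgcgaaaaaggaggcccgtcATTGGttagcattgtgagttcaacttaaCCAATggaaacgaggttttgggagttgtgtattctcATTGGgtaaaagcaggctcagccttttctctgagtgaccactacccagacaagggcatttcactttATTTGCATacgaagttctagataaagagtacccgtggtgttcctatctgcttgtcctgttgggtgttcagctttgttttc
Hist1h1d holds the H1 motif AAACACA, 1 CCAAT and TATAAA on either strand, and Hist1h2bk holds the octamer, CCAAT on either strand and TATAAA on the other strand.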

How the data were processed

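Embryos and yolk sacs were profiled by 3′ RNA sequencing with oligo(dT) priming (QuantSeq 3′ FWD). The deposited values were raw UMI counts per gene, which the authors made by alignment with STAR, UMI collapse and counting with HTSeq on mm10. Tool versions, annotation and strand setting are not given in the sources used here. Samples were grouped by tissue, maternal condition and somite stage from the labels, and 4 batch-control duplicates were left out. Libraries held 1017901 to 5658850 counts (median 2302819), of which 274 to 3062 (median 891.5) belonged to replication-dependent genes, and this number limits the precision of single members.

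Comparisons used edgeR 4.0.16 (R 4.3.3, limma 3.58.1) with TMM scaling, filterByExpr, the quasi-likelihood test and p-values adjusted across the whole table after Benjamini and Hochberg, with a threshold of 0.05. Levels were counts divided by DESeq2 1.42.0 size factors. Shares, correlations and figures were made with Python 3.11.15, numpy 2.4.6, pandas 2.3.3, scipy 1.17.1 and matplotlib 3.10.9. Log2 fold changes carry the standard error of the fit. The procedure was tested on simulated data for embryos at 7 to 9 somite pairs (10506 genes), where 94% of genes changed by 2-fold were recovered and 5.68% of calls were of unchanged genes. Of all 200 changed genes, which included smaller changes, 84.7% were recovered. The counts were drawn independently for each embryo, without litters, so these rates do not cover the effect of shared dams.

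The members and lists were chosen with earlier results of these data known. Text names every variant with a mean of at least 1 in any group, the 10 replication-dependent genes with the highest mean in each tissue, and up to 5 raised and 5 lowered called members per comparison by size of fold change. Other genes and RNAs named beside them were chosen after their values were seen. Embryo and yolk sac of a conceptus are paired by label, and over 66 pairs the correlation of deviations from group means ran from -0.337 to 0.546 (median 0.0746, 42 above 0), so a fit with the conceptus as replicate block was run for the tissue comparisons. Alternatives were DESeq2, RLE scaling, library totals, no filter, litter sums, a litter block, covariates, and the leaving out of litter D24M15.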

Additional observations from a re-analysis of the deposited data

Results flagged for a closer look

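An interaction term passed the edgeR quasi-likelihood test for 6 members (log2 scale). Both terms contain the embryo contrast from which the sets were proposed, so the values are descriptive. In embryos the maternal difference was larger at 7 to 9 than at 5 to 6 somite pairs for Hist1h4d, by 1.53, and for Hist1h3a, by 1.08. These were 2 of 34 tested members, a smaller share than the 8.7% of all genes that passed, and none passed without the filter. At 7 to 9 somite pairs the yolk sac minus embryo interaction was -1.78 for Hist1h2an, -1.73 for Hist1h4n, -1.44 for Hist2h2ac and -1.38 for Hist1h2bc, where 0.389% of all genes passed. The same 4 genes were called with the conceptus as a block. With litter as a random block the same 2 and the same 4 genes were called, together with Hist1h1b and Hist1h1e in the second term. The part of RNAs without a poly(A) tail in these values was not tested.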

How the results depend on the processing

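Of the counts of called members and the share ratios under the alternatives, 212 stayed within their limit and 40 did not. The limit was 1.5 times for counts and, for share ratios, the SD over the mean of the normal group. Of the values for named genes, 2863 were scored the same, 27 passed the threshold newly, 110 lost it and 7 reversed. The 2863 include fold changes whose sign changed without a call in either fit. They also include ratios of mean levels, which have no threshold. Settings with covariates test more genes, since the filter then uses smaller groups. The counts below stand without the share of all genes called in the same fit, so they show only how the number of called members changed. For replication-dependent genes in diabetic against normal embryos at 5 to 6 somite pairs (3 called), DESeq2 called 6, title number as a covariate 7, and litter sums, the litter block and the covariates for RNAs without a tail and for mitochondrial rRNA each 0. At 7 to 9 (19 called), DESeq2 called 43, no filter 39, title number 40, somite number with sex 37, mitochondrial rRNA 42, the fit without litter D24M15 11, and litter sums and the covariate for RNAs without a tail each 0. For the variants at that stage (1 called) DESeq2, title number and the fit without litter D24M15 gave 2, and litter sums, the litter block and the RNAs without a tail 0. By stage in embryos (14 called) DESeq2 gave 25, no filter 22, title number 24, mitochondrial rRNA 27, the RNAs without a tail 9 and litter sums 3, and for variants (4 called) litter sums gave 1. By stage in yolk sacs (6 called) mitochondrial rRNA gave 3. Between tissues at 5 to 6 (16 called) DESeq2 gave 46, no filter 48, title number 31 and the replicate block by conceptus 38, and at 7 to 9 (26 called) 53, 54, 49 and 49. The stage interaction in embryos (2 called) gave 1 with RLE scaling and 0 without the filter, and the tissue interaction at 7 to 9 (4 called) gave 7 with DESeq2, and 1 against 0 for variants. With the level of RNAs without a tail as covariate, Hist1h3b (-0.33), Hist1h2bj (-0.036), Hist2h3c2 (-0.88) and Hist2h2bb (-0.11) reversed in embryos at 7 to 9. With mitochondrial rRNA, Hist1h2an reversed by stage in embryos (0.48) and Hist1h1e in yolk sacs (0.31), and with library totals only H1f0 reversed between tissues at 5 to 6 (-0.17). The causes were not tested. Few counts per gene limit what can be called: 26 of 65 members passed the filter at 7 to 9 somite pairs.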
